A study of Homo sapiens with 12 samples.

Results

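The genes described here are 9 products of the stomach's mucus layer and its relatives: the membrane mucins MUC1, MUC13 and MUC20, the gel-forming mucins MUC5AC, MUC5B and MUC6, and the trefoil factors TFF1, TFF2 and TFF3. They were found by their symbols in the deposited matrix and make up 9 of its 60623 genes, with 1 row each. They were chosen by name with results of the same libraries already known, and which levels or differences entered the choice is not recorded. All 4 groups therefore count as used, and differences between treatments for these genes are given as description, with no p-value. The RNA is labelled as coming from NUGC-4, an established human line that the labels call a diffuse gastric cancer line of wild-type genotype. Cells had been exposed for 24 h to IN10018 and crizotinib together (1 µM each), to 1 µM crizotinib alone, to 1 µM IN10018 alone, or to neither (the control), with 3 libraries in each group. IN10018 is an inhibitor of focal adhesion kinase, and crizotinib inhibits MET, ALK and ROS1 among other kinases. All 12 libraries carry the label of a single cell line, and nothing in the labels says whether those of a group were separate cultures, so the spread between them may be technical.

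Mucins are large proteins whose serine- and threonine-rich repeats carry dense O-linked sugar chains. In the stomach, surface pit cells secrete MUC5AC together with TFF1, and gland mucous cells secrete MUC6 together with TFF2. The trefoil factors are small, tightly folded peptides that are stored and released with these mucins and take part in repair of the lining. MUC1, MUC13 and MUC20 stay in the cell membrane, where their extracellular parts form a barrier and their short tails bind signalling proteins.

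The repeats are also where short reads are hard to place, so those of the pair of members with enough reads to test are shown first, from the GENCODE 29 transcripts on GRCh38. MUC1 (ENSG00000185499) lies at chr1:155185824-155192916 on the minus strand. Its longest transcript, MUC1-223, has 11 exons and 4170 bases. A unit of 60 bases occurs 19 times without a difference in it, and 40 times when up to 6 mismatches are allowed. The first copy spans transcript positions 534 to 593.
MUC1 repeat unit: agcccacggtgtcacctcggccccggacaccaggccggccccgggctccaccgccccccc
Of all windows of 50 bases in that transcript, 42.42% occur in it more than once. MUC6 (ENSG00000184956) lies at chr11:1012821-1036706 on the minus strand, and its transcript MUC6-201 has 33 exons and 8006 bases. Its coding repeats return after 507 bases and differ more between copies, so 1.76% of its windows occur more than once. The stretches at positions 4337 to 4396 and 4844 to 4903 differ at 1 base, in capitals.
MUC6 repeat, earlier copy: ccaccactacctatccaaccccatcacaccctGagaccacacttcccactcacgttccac
MUC6 repeat, next copy: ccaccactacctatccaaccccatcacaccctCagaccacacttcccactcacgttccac
No window of either transcript occurs in a transcript of another gene. Reads from a repeat can align to several copies within the same gene, and how the counting treated reads with several alignments is not given in the sources used here.

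A RefSeq promoter sequence was held for 2 of the 9 genes, MUC1 and MUC13. That of MUC1 is shown because MUC1 was the 1 gene of these 2 whose RNA could be tested. It covers chr1:155192866-155193165 of GRCh38.p14, read on the minus strand from 250 bases before to 50 bases after the gene's start. Capitals mark a TATA box (TATAAA) and GC boxes (GGGCGG), searched on both strands.
MUC1 promoter: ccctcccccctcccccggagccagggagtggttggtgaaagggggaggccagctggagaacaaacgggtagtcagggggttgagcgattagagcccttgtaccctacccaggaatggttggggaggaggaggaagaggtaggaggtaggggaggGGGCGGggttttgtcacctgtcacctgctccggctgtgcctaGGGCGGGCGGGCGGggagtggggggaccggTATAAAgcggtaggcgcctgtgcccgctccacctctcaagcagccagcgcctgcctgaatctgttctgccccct
The TATA box matched at 1 place and the GC box at 4, of which 3 overlap one another. TATAAA occurs in 11.53% and GGGCGG in 44.95% of the 35116 promoters of the same length.

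The libraries held 13691844 to 20489708 reads. Mitochondrially encoded genes took 4.28 to 6.99% of the reads in combination libraries, 5.21 to 13.3% in crizotinib libraries, 11.5 to 12.7% in IN10018 libraries and 11 to 11.9% in control libraries. Crizotinib library 2 stood apart from the other crizotinib libraries: on the first principal component, which held 67.2% of the variance, it lay at 57.8, against -4.61 and 10.3 for the others, while the combination libraries lay at 37.8 to 91.4. Differences after crizotinib are given with and without it. Markers of the labelled gastric identity were checked as read counts scaled to library size (CPM), with library sizes adjusted by the trimmed mean of M-values (TMM). The keratin KRT19 and the transcription factors SOX2 and FOXA2 had 0 reads in all 12 libraries, and the gastric tight junction gene CLDN18 had 4 reads in all. Other genes of these kinds had many reads: the keratins KRT8 and KRT18 averaged 10.6 and 9.5 as log2 CPM. Of 25 gastric and goblet transcription factors, 7 had 0 reads and 12 could be tested, among them GATA4 (3.86), GATA5 (3.84) and KLF5 (7.29). Of 12 gastric pit cell markers, 4 had 0 reads and none had enough reads to test. Their summed level reached at most 0.834 CPM in a combination library, 0.628 in a crizotinib library, 0.276 in an IN10018 library and 0.484 in a control library. Of 14 neck, chief, parietal and endocrine markers, 6 had 0 reads and 2 could be tested. Of 13 intestinal markers, 5 had 0 reads and 2 could be tested. Markers of differentiated gastric cell types were thus mostly absent, while 12 of the 25 transcription factors could be tested. Whether the libraries come from the labelled line was not tested.

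Some markers of other kinds differed between treatments. Differences in them are given as log2 fold changes ± SE, combination over control. A gene is called where its p-value, adjusted over all tested genes by the Benjamini-Hochberg method in edgeR, is under 0.05. That comparison called 62.8% of all tested genes, 33.7% as higher and 29.1% as lower, beside 71.4% of the tested epithelial markers. Of 10 epithelial markers 7 were tested: 4 were called higher (CLDN4 1.87 ± 0.23, KRT7 0.76 ± 0.19, CLDN3 0.66 ± 0.19 and KRT18 0.65 ± 0.17) and CDH1, the main epithelial cadherin, was called lower (-0.87 ± 0.21). EPCAM was not called (-0.11 ± 0.13), and neither was KRT8 (0.42 ± 0.19), which averaged 1859 CPM in combination, 1608 in crizotinib, 1196 in IN10018 and 1391 in control libraries. KRT8 was called without crizotinib library 1 (0.42) or 2 (0.41) or combination library 3 (0.54). It was also called with scaling by library totals (0.60), without the filter on low counts (0.39) and with a stricter one (0.45). The same held with the library number as a block (0.39) and with only the compared libraries fitted (0.38). The summed epithelial markers ranged from 2675 to 4051 CPM in combination, 2013 to 3555 in crizotinib, 1870 to 2052 in IN10018 and 2193 to 2330 in control libraries.

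A description label on every sample mentions adipogenic differentiation. Of 10 adipocyte markers, ADIPOQ and LPL had 0 reads in all libraries and 6 were tested. CFD (1.92 ± 0.32), PLIN1 (1.33 ± 0.23), LIPE (0.91 ± 0.17) and FABP4 (0.65 ± 0.16) were called higher in combination than in control libraries. PPARG, the main regulator of fat cell differentiation, was called lower (-0.95 ± 0.14), and so was CEBPA (-0.81 ± 0.30). The CEBPA call was lost without control library 1 (-0.63) or combination library 1 (-0.73) or 3 (-0.78), and with scaling by library totals (-0.63). The sum of the adipocyte markers ranged from 172 to 227 CPM in combination, 130 to 183 in crizotinib, 120 to 128 in IN10018 and 131 to 139 in control libraries. Of 11 fibroblast and blood markers 6 were tested, of which PECAM1 (2.06 ± 0.16) and COL1A1 (1.33 ± 0.37) were called higher and 4 were not called. Their sum, nearly all of it the fibrillar collagen COL3A1 (-0.15 ± 0.12), ranged from 5100 to 6025 CPM in combination, 5199 to 6682 in crizotinib, 5175 to 6128 in IN10018 and 5682 to 6258 in control libraries. COL1A2 had 12 reads in all. Of the tested markers, 100% of the adipocyte list and 33.3% of the fibroblast and blood list were called, beside 62.8% of all tested genes. The part of these markers in the results on mucins was not tested.

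Most of the 9 genes had few or no reads. Only MUC6, with 1931 reads over the 12 libraries, and MUC1, with 992, passed edgeR's filter on low counts, which left 17096 genes for testing. TFF1 had 36 reads, MUC5B 23, MUC13 19, MUC20 6, TFF3 3 and MUC5AC 1. TFF2 had 0 reads in any library, which at 3 counts over 197368907 reads allows a level of up to 0.0152 CPM. The paired products of gastric pit cells, MUC5AC and TFF1, and the gland partner of MUC6, TFF2, were thus below what could be tested in all 4 groups.

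**Figure D1:**
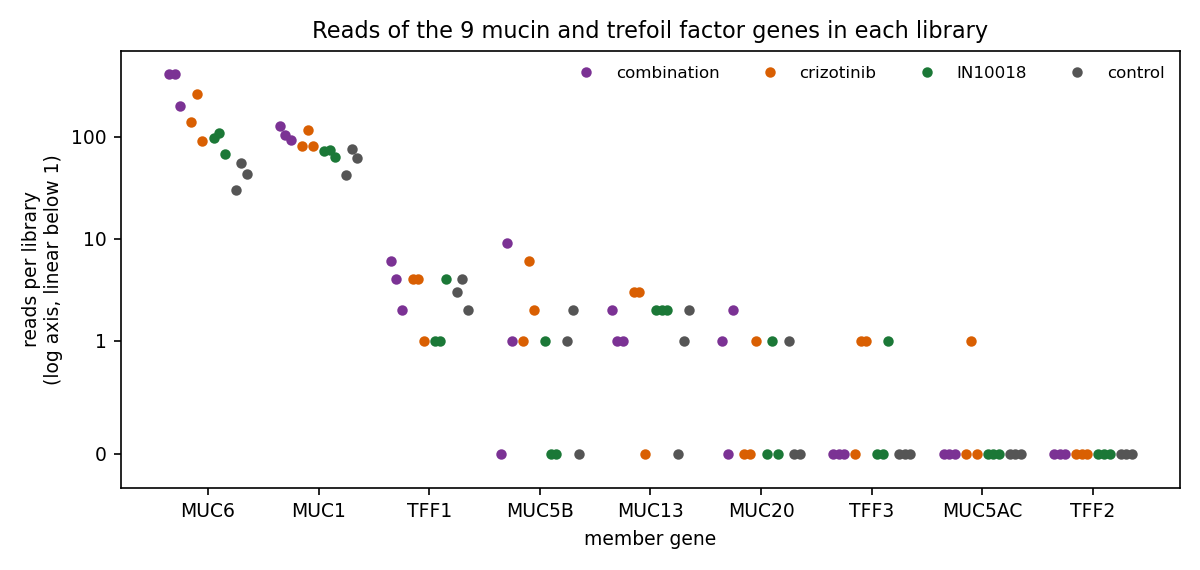
Reads per library (vertical axis, log scale, linear below 1) for each of the 9 genes; each point is 1 library, coloured by group in the order combination, crizotinib, IN10018, control. MUC6 has 30 to 418 and MUC1 42 to 127 reads per library, TFF1 has 1 to 6, and TFF2 has 0 throughout.

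Among the pit cell products, MUC5AC (ENSG00000215182, chr11:1157953-1201138, plus strand) had its 1 read in crizotinib library 2. TFF1 (ENSG00000160182, chr21:42362282-42366594, minus strand), the trefoil peptide of the surface, had 6, 4 and 2 reads in combination, 4, 4 and 1 in crizotinib, 1, 1 and 4 in IN10018, and 3, 4 and 2 in control libraries. It had a read in every library, and all 4 groups overlapped. Its sums per group were 12, 9, 6 and 9 reads in the same order.

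Of the gland cell trefoil factor TFF2 (ENSG00000160181, chr21:42346357-42351128, minus strand), each group's 0 reads allow at most 0.0631 CPM in combination, 0.0599 in crizotinib, 0.0594 in IN10018 and 0.0616 in control libraries, at 3 counts a group. TFF3 (ENSG00000160180, chr21:42311667-42315651, minus strand), a product of intestinal goblet cells, had 0 reads in combination, 2 in crizotinib, 1 in IN10018 and 0 in control libraries. Such limits cover counting error only.

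MUC5B (ENSG00000117983, chr11:1223066-1262172, plus strand), a gel-forming mucin best known from airways and salivary glands, had 0, 9 and 1 reads in combination, 1, 6 and 2 in crizotinib, 1, 0 and 0 in IN10018, and 1, 2 and 0 in control libraries. Of its 23 reads, 15 lay in combination library 2 and crizotinib library 2. No test was made for MUC5B, since it did not pass the filter.

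MUC13 (ENSG00000173702, chr3:124905442-124953819, minus strand), a membrane mucin of stomach and gut, had 2, 1 and 1 reads in combination, 3, 3 and 0 in crizotinib, 2, 2 and 2 in IN10018, and 0, 1 and 2 in control libraries. MUC20 (ENSG00000176945, chr3:195720882-195741123, plus strand), a membrane mucin reported to bind MET, had 3 reads in combination and 1 in each other group. Its level is uncertain, because 69.14% of its transcript's 50-base windows also occur in transcripts of MUC20-OT1 or MUC20P1. MUC20-OT1 (ENSG00000242086), a non-coding gene that overlaps MUC20 on the same strand, had 3988 reads: 399, 309 and 376 in combination, 404, 375 and 348 in crizotinib, 351, 456 and 291 in IN10018, and 180, 247 and 252 in control libraries. Each treated library held more of its reads than any control library, before scaling to library size. In the deposited matrix this row carries the symbol SDHAP2, and it is 1 of the 18 tested neighbours counted further below. As CPM, IN10018 libraries lay above control libraries for it, as for 14.0% of tested genes. It was called higher there (0.63 ± 0.11, adjusted p 0.021 in edgeR), as were or lower 0.503% of tested genes.

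MUC6, the gel-forming mucin of gland mucous cells, differed more between treatments than MUC1, the other member with enough reads to test. RNA from bulk cells cannot tell a change in the number of cells making a mucin from a change in RNA per cell. MUC6 had 414, 418 and 202 reads in combination libraries, 141, 263 and 92 in crizotinib libraries, 97, 108 and 68 in IN10018 libraries, and 30, 55 and 43 in control libraries. As CPM these were 24.6, 29 and 12.4 in combination, 8.36, 15 and 5.86 in crizotinib, 6.0, 5.46 and 4.69 in IN10018, and 2.24, 3.33 and 2.29 in control libraries. Every treated library lay above every control library. The IN10018 and crizotinib groups overlapped, and so did the combination and crizotinib groups, because crizotinib library 2 exceeded combination library 3. Group means were 22 ± 8.64 CPM in combination, 9.74 ± 4.73 in crizotinib, 5.38 ± 0.658 in IN10018 and 2.62 ± 0.613 in control libraries (SD, n = 3 each).

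MUC1, the membrane mucin found on most simple epithelia, followed the same order of group means in a narrower range. Its reads were 127, 105 and 93 in combination, 81, 116 and 81 in crizotinib, 72, 74 and 63 in IN10018, and 42, 76 and 62 in control libraries. That gave 7.56, 7.30 and 5.69 CPM in combination, 4.80, 6.62 and 5.16 in crizotinib, 4.45, 3.74 and 4.34 in IN10018, and 3.14, 4.60 and 3.30 in control libraries. Combination and crizotinib libraries all lay above the control libraries, whereas IN10018 and control libraries overlapped, as did combination and crizotinib libraries. Means were 6.85 ± 1.01 CPM in combination, 5.53 ± 0.966 in crizotinib, 4.18 ± 0.384 in IN10018 and 3.68 ± 0.799 in control libraries (SD, n = 3 each).

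Levels of different genes can be set side by side only per length, as TPM, counts per base of transcript scaled to the same sum in each library, over the union of each gene's annotated exons. MUC6 reached 9.64 ± 3.71 TPM in combination, 4.0 ± 2.35 in crizotinib, 2.0 ± 0.239 in IN10018 and 0.949 ± 0.253 in control libraries (SD, n = 3 each). MUC1 had 5.37 ± 0.718 TPM in combination, 4.0 ± 1.14 in crizotinib, 2.78 ± 0.264 in IN10018 and 2.38 ± 0.593 in control libraries (SD, n = 3 each). In control and in IN10018 libraries MUC1 was the higher of the pair in 3 of 3 libraries. Among combination libraries MUC6 was higher in 3 of 3, and among crizotinib libraries only in library 2. TFF1, whose transcript has 551 bases, had 1.69 ± 0.780 TPM in combination, 1.08 ± 0.614 in crizotinib, 0.738 ± 0.727 in IN10018 and 1.06 ± 0.436 in control libraries (SD, n = 3 each). Per length, the few TFF1 reads of control libraries thus stood beside a similar MUC6 level, within the spread of either gene. MUC13, MUC5B and MUC20 averaged at most 0.112 TPM in any group.

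**Figure D2:**
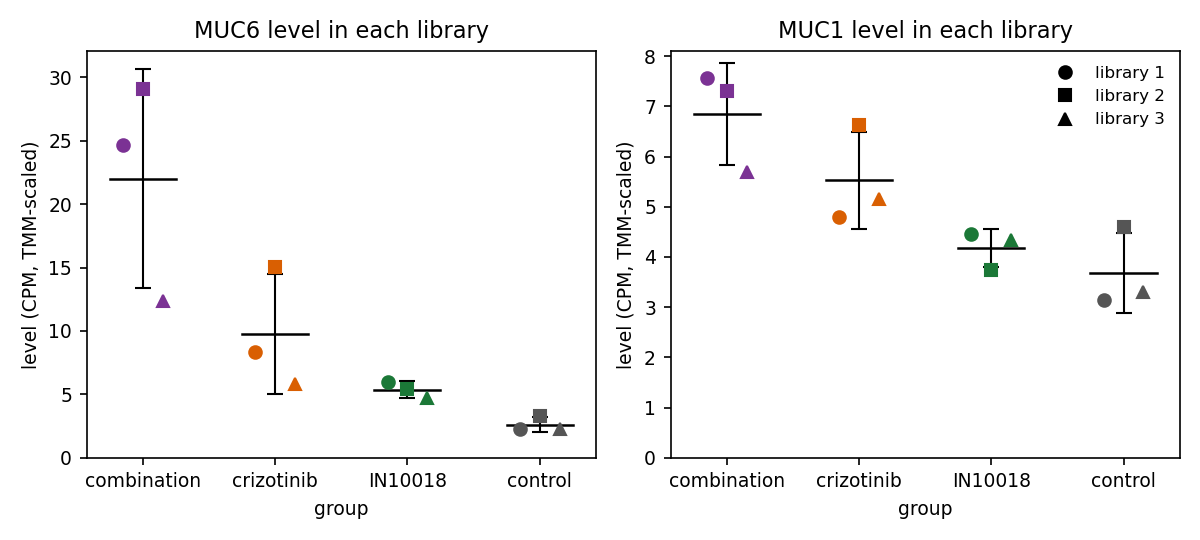
TMM-scaled CPM (linear axis from 0) of MUC6 and MUC1 in each library by group, with a marker shape per library number, a line at the group mean and bars of 1 SD (n = 3). MUC6 averages 22 CPM in combination and 2.62 CPM in control libraries, MUC1 averages 6.85 CPM in combination and 3.68 CPM in control libraries, and crizotinib library 2 is the highest of its group for both genes.

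Differences of the mucins are log2 fold changes ± SE from edgeR's quasi-likelihood fit over all 12 libraries, with calls as above. Because the choice of the 9 genes used these groups, a call of MUC6 or MUC1 only says on which side of the threshold the fit put it, and nothing is read from it or from its share. After the combination, MUC6 was higher than in controls by 3.06 ± 0.36, an 8.35-fold difference that ranked 37th from the top among the tested genes. MUC1 was higher by 0.89 ± 0.20. Both were called, in a comparison that called 62.8% of all tested genes, 33.7% as higher and 29.1% as lower, with a median change of 0.10. For both genes the 3 combination libraries lay above the 3 control libraries, as did those of 37.9% of tested genes.

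Against controls, crizotinib alone went with a MUC6 difference of 1.89 ± 0.37 and a MUC1 difference of 0.58 ± 0.20. Both genes were called, where the comparison called 37.6% of tested genes, 20.0% as higher and 17.6% as lower. The groups did not overlap for either gene, as for 26.3% of tested genes. Without crizotinib library 2 the MUC6 difference was 1.43 ± 0.33 and still called, and the MUC1 difference was 0.43 ± 0.21 and no longer called. That fit called 20.9% of all tested genes. The MUC1 call was also lost without control library 1, at 0.50 ± 0.22, and without control library 3, at 0.44 ± 0.23. Those fits called 17.7% and 20.9% of all tested genes. Crizotinib library 2 had the group's highest MUC6 and MUC1 levels and its lowest mitochondrial share, 5.21% against 13.3% and 9.46%; the part of that share in these results was not tested.

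For IN10018 alone against controls, MUC6 differed by 1.04 ± 0.38 and MUC1 by 0.17 ± 0.20, and neither was called. The comparison called 0.503% of tested genes, and 1886 genes had an unadjusted p under 0.05. The IN10018 libraries nonetheless lay above the control libraries for MUC6, as they did for 14.0% of tested genes. MUC6 was called when only the 6 libraries compared were fitted (1.07), where 13.9% of all tested genes were called. It was also called when the filter on low counts was dropped (1.03), where 1.06% were called.

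Adding crizotinib to IN10018 gave a difference of 2.03 ± 0.33 for MUC6 and 0.72 ± 0.19 for MUC1, combination over IN10018. Both were called, in a comparison that called 57.2% of tested genes, 29.7% as higher and 27.5% as lower. Neither gene's groups overlapped, as for 34.8% of tested genes.

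Adding IN10018 to crizotinib gave a MUC6 difference of 1.17 ± 0.32, combination over crizotinib, and a MUC1 difference of 0.31 ± 0.19. Neither was called, and edgeR called 2 of all tested genes (0.0117%), while 3697 had an unadjusted p under 0.05. Libraries of the same number in these 2 groups deviated together, with correlations of 0.218, 0.624 and 0.275 between their deviations from the group means. Between unlike numbers the correlations ran from -0.527 to 0.422. The highest of these, for combination library 3 and crizotinib library 1, exceeded the 0.218 and 0.275 of same-numbered libraries. A pairing by number is therefore uncertain. Within a number, the combination library had 2.95, 1.93 and 2.11 times the MUC6 level of the crizotinib library, and 1.57, 1.10 and 1.10 times its MUC1 level. With the number as a block the MUC6 difference was 1.18 ± 0.19 and was called, in a fit that called 0.550% of all tested genes. Without crizotinib library 2 it was 1.62 ± 0.29 and called, as were 32.3% of all tested genes. With both libraries numbered 2 left out it was 1.38 ± 0.27 and called, as were 25.2% of all tested genes. MUC1 was not called under any of these settings.

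The interaction asks whether the effect of IN10018 in the presence of crizotinib differs from its effect alone, on the log2 scale. It came to 0.13 ± 0.51 for MUC6 and 0.13 ± 0.28 for MUC1, neither called, where 0.0702% of tested genes were called. Leaving out 1 library at a time moved it between -0.16 and 0.59 for MUC6 and between -0.059 and 0.29 for MUC1, never called. The comparisons share libraries, so their values for a gene are not independent of one another.

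**Figure D3:**
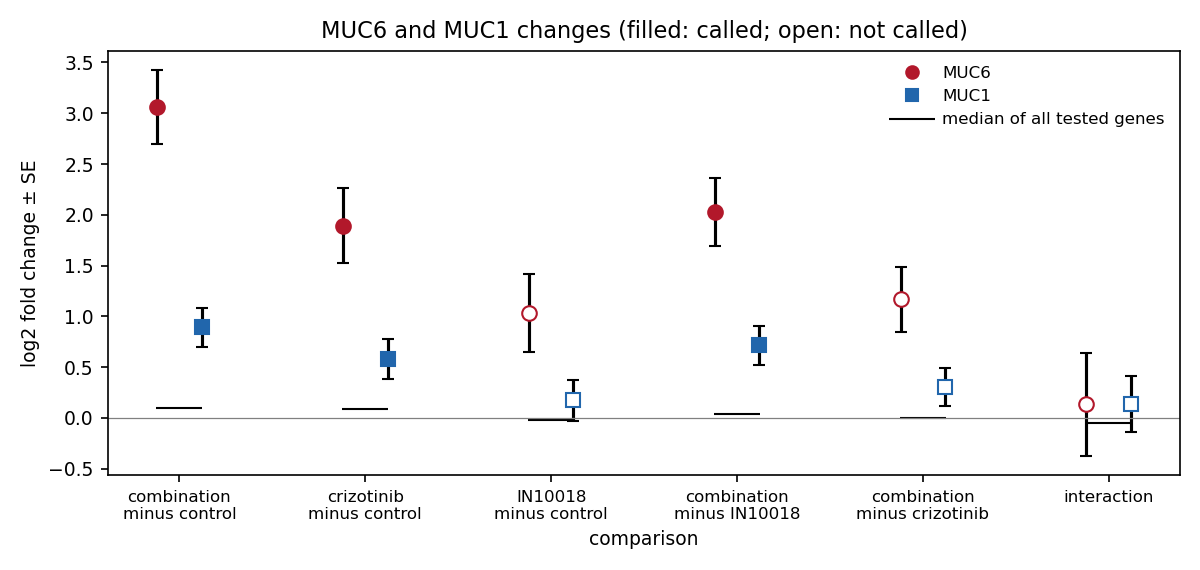
Log2 fold changes with bars of 1 SE for MUC6 (circles) and MUC1 (squares) in the 6 comparisons; filled points are called at an adjusted p under 0.05, open points are not, and short lines mark the median of all tested genes. MUC6 spans 0.13 to 3.06 and MUC1 0.13 to 0.89, and both are at 0.13 in the interaction.

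Among the genes whose levels ran most like MUC6 across the 12 libraries, by Pearson's r of log2 CPM, were SNHG11 (0.991), SLC26A6 (0.991), HSF4 (0.990) and MIRLET7BHG (0.989). SLC26A6, an anion exchanger of epithelial membranes, averaged 23.5 CPM in combination, 17.1 in crizotinib, 12.5 in IN10018 and 9.21 in control libraries. Its difference, combination over control, was 1.35 ± 0.20 on the log2 scale, a smaller range than MUC6's with the same order of groups. For MUC1 the nearest were AP000346.2 (0.980), POLR2J2 (0.976), ASIC1 (0.970), IP6K2 (0.970) and FCSK (0.970). An r above 0.9 was reached by 8.61% of tested genes with MUC6 and by 6.5% with MUC1. The points share their libraries, treatments and scaling, so these values only describe how alike the levels ran across these libraries.

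MUC6, MUC5AC and MUC5B lie in one cluster on chromosome 11 with MUC2, the intestinal gel-forming mucin. Within the cluster only MUC6 had enough reads to test. Combination libraries against controls gave 0.87 ± 0.16 for TSPAN4, a tetraspanin, and 0.92 ± 0.22 for CHID1, a chitinase-domain protein, on the far side of AP2A2 (adjusted p 0.00045 and 0.0027). AP2A2, a subunit of the clathrin adaptor AP-2, ends at position 1012245, next to the end of MUC6 at 1012821, and was not called (0.29 ± 0.13, adjusted p 0.065). It was called without crizotinib library 1 (0.29) or 2 (0.28) and with scaling by library totals (0.46). On the other side of the mucins, TOLLIP, an adaptor of Toll-like receptor signalling, was higher by 0.57 ± 0.13 (adjusted p 0.0017), and BRSK2, a kinase, by 0.80 ± 0.14 (adjusted p 0.00038). Of the 6 tested genes of this stretch, MUC6, at 3.06, had the largest difference under TMM scaling. Because the choice of MUC6 used these groups, nothing is read from that rank.

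Around MUC1 on chromosome 1, several neighbours differed more than MUC1 did. Against controls, combination libraries were higher by 1.81 ± 0.27 for KRTCAP2, a subunit of the oligosaccharyltransferase (adjusted p 0.00014). TRIM46, a microtubule-associated protein of neurons, was higher by 1.63 ± 0.35 (adjusted p 0.0012), and the matrix protein gene THBS3 by 1.36 ± 0.18 (adjusted p 8.6e-05). DPM3, a subunit of dolichol-phosphate-mannose synthase, was higher by 0.78 ± 0.17 (adjusted p 0.0013). MUC1, at 0.89 ± 0.20, lay inside this range. Over the 18 tested neighbours of the 9 genes that are reported here, 12 were higher, 1 was lower and 5 were not called, and library totals gave 15 higher and none lower. The median of these neighbours was 0.68, beside 0.10 over all tested genes. The lower one was HEG1, a membrane protein of vessels with a mucin-like part, at -0.33 ± 0.11 (adjusted p 0.021). Its call was lost without control library 1 (-0.29), combination library 1 (-0.29) or combination library 2 (-0.26). That is 72.2% called, beside 62.8% of all tested genes. After crizotinib alone 10 neighbours were higher and 8 were not called (55.6% called, beside 37.6%), and 6 were higher without crizotinib library 2, where 20.9% of all tested genes were called.

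**Figure D4:**
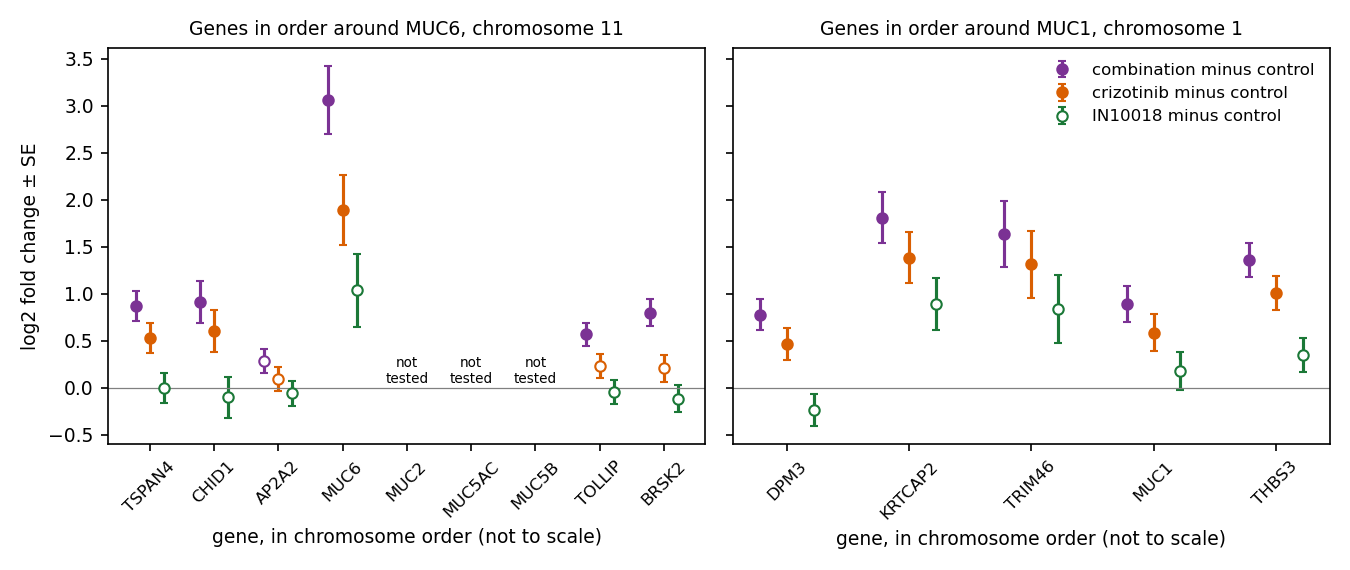
Log2 fold changes with bars of 1 SE for combination, crizotinib and IN10018, each over control, for genes in order (not to scale) around MUC6 on chromosome 11 and MUC1 on chromosome 1; filled points are called, open points are not, and mucins without enough reads are marked as not tested. In the combination, AP2A2 beside MUC6 is at 0.29, and KRTCAP2, TRIM46 and THBS3 exceed MUC1's 0.89.

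Genes that make, decorate, release or cleave mucins were looked at in 6 lists of 130 genes in all, of which 70 were tested. These lists too were drawn up with results of these libraries known, so the p-values of their genes are not independent evidence. Combination over control, 15 were higher, 32 were lower and 23 were not called, so 67.1% were called, beside 62.8% of all tested genes. Their median was -0.28, beside 0.10 over all tested genes. Scaling by library totals alone gave 21 higher and 28 lower, and moved the median of all tested genes up by 0.18. Crizotinib over control, 10 were higher, 23 lower and 37 not called (47.1% called, beside 37.6%), and library totals gave 16 higher and 17 lower. That count of 33 fell to 15 without control library 1 and to 20 without either control library 3 or crizotinib library 2. Without crizotinib library 2 that was 28.6% of the 70, beside 20.9% of all tested genes. Without control library 1 it was 20.8% of those tested, beside 17.7%, and without control library 3 28.2%, beside 20.9%. By list, the combination counts below stand beside 33.7% called higher and 29.1% called lower of all tested genes.

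Of 10 tested genes for the first steps of O-glycans, 7 were lower, 1 was higher and 2 were not called in combination libraries against controls. GALNT7, a transferase that adds GalNAc to peptides already carrying it, averaged 22.1 ± 3.33 CPM in combination, 29.9 ± 10.4 in crizotinib, 51.6 ± 2.17 in IN10018 and 50.5 ± 1.63 in control libraries (SD, n = 3 each). It differed by -1.19 ± 0.20 in the combination (adjusted p 0.00028) and by -0.76 ± 0.20 after crizotinib (adjusted p 0.012), or -0.50 ± 0.13 without crizotinib library 2 (adjusted p 0.012). GALNT10, of the same family, fell by 0.75 ± 0.10 (adjusted p 9.8e-05), and C1GALT1, which builds the core 1 structure, fell by 1.10 ± 0.20 (adjusted p 0.00045). The exception was GALNT6, higher by 1.01 ± 0.28 (adjusted p 0.0065).

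Extension and capping enzymes went both ways, with 5 higher, 8 lower and 6 not called of 19 and a median of -0.08, while library totals gave 8 higher, 6 lower and a median of 0.10. The galactosyltransferase B4GALT1 fell by 0.70 ± 0.11 (adjusted p 0.00019). The sialyltransferases ST3GAL3 (0.92 ± 0.17, adjusted p 0.00047) and ST3GAL2 (0.58 ± 0.12, adjusted p 0.0011) rose. FUT2, the secretor fucosyltransferase of mucous epithelia, rose by 1.33 ± 0.37 (adjusted p 0.0063). A4GNT, which makes the GlcNAc cap typical of MUC6 in gastric glands, had 0 reads in all 12 libraries.

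Of 16 tested genes of mucin folding and secretion, 4 rose, 5 fell and 7 were not called, against 5 and 4 called higher and lower with library totals. STXBP2, a partner of syntaxins in granule release, averaged 48.3 ± 17.3 CPM in combination, 32.3 ± 11.1 in crizotinib, 17.2 ± 1.94 in IN10018 and 14.6 ± 1.5 in control libraries (SD, n = 3 each). It rose by 1.72 ± 0.25 in the combination (adjusted p 0.00012) and by 1.14 ± 0.25 after crizotinib (adjusted p 0.0060), or 0.83 ± 0.21 without crizotinib library 2 (adjusted p 0.015). VAMP8, a granule SNARE of mucin secretion, rose by 1.26 ± 0.22 in the combination (adjusted p 0.00034). The transcription factor CREB3L4 rose by 0.93 ± 0.14 (adjusted p 0.00015), while the folding enzyme PDIA4 fell by 0.51 ± 0.09 (adjusted p 0.00034). The mucin-folding isomerase AGR2 had 11 reads in all and was not tested.

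Of the transcription factors of gastric and goblet cells, 12 of 25 were tested, of which 3 rose, 5 fell and 4 were not called in the combination. KLF4, a factor of goblet cell differentiation, had 1, 0 and 2 reads in combination, 6, 1 and 6 in crizotinib, 36, 30 and 28 in IN10018, and 87, 72 and 112 in control libraries. It was the single gene of the 70 called for IN10018 over control (-1.57 ± 0.29, adjusted p 0.028), where 0.503% of all tested genes were called. At an unadjusted p under 0.05 there were 10 of the 70, beside 1886 of all 17096. The KLF4 call was lost without control library 1 or 3 or any 1 IN10018 library, at -1.43 to -1.71. Those fits called 0.0399 to 0.294% of all tested genes. KLF4 differed by -4.39 ± 0.39 after crizotinib (adjusted p 2.6e-05), or -3.90 ± 0.36 without crizotinib library 2 (adjusted p 6.8e-06). It was also called lower in the combination, where so few reads give no usable fold. EHF fell by 0.83 ± 0.15 (adjusted p 0.00037) and KLF5 by 0.75 ± 0.14 (adjusted p 0.00044) in the combination, and the intestinal factor CDX2 rose by 1.21 ± 0.29 (adjusted p 0.0027). SPDEF, a goblet cell factor, had 0 reads.

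Of 10 tested sheddases and partners of membrane mucins, 2 rose, 5 fell and 3 were not called in the combination, and library totals gave 4 higher and 5 lower. ADAM17, which sheds MUC1, fell by 0.64 ± 0.12 (adjusted p 0.00059), and its relatives ADAM9 and ADAM10 fell by 1.36 ± 0.20 (adjusted p 0.00013) and 0.93 ± 0.16 (adjusted p 0.00029). MMP14, another MUC1 sheddase, rose by 1.06 ± 0.37 (adjusted p 0.023), a call lost without control library 2 (0.75), combination library 1 (1.01) or combination library 2 (0.88). GSK3B, a kinase that phosphorylates the MUC1 tail, fell by 1.12 ± 0.15 (adjusted p 9.6e-05). LGALS3, the galectin that binds MUC1's sugars, rose by 0.42 ± 0.09 (adjusted p 0.0015). Of 17 genes listed as other mucins, which include sialomucins and the adhesion molecule MCAM, 3 were tested. PODXL fell by 0.89 ± 0.13 (adjusted p 0.00011), CD164 fell by 1.24 ± 0.19 (adjusted p 0.00018), and MCAM was not called (-0.034 ± 0.14).

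**Figure D5:**
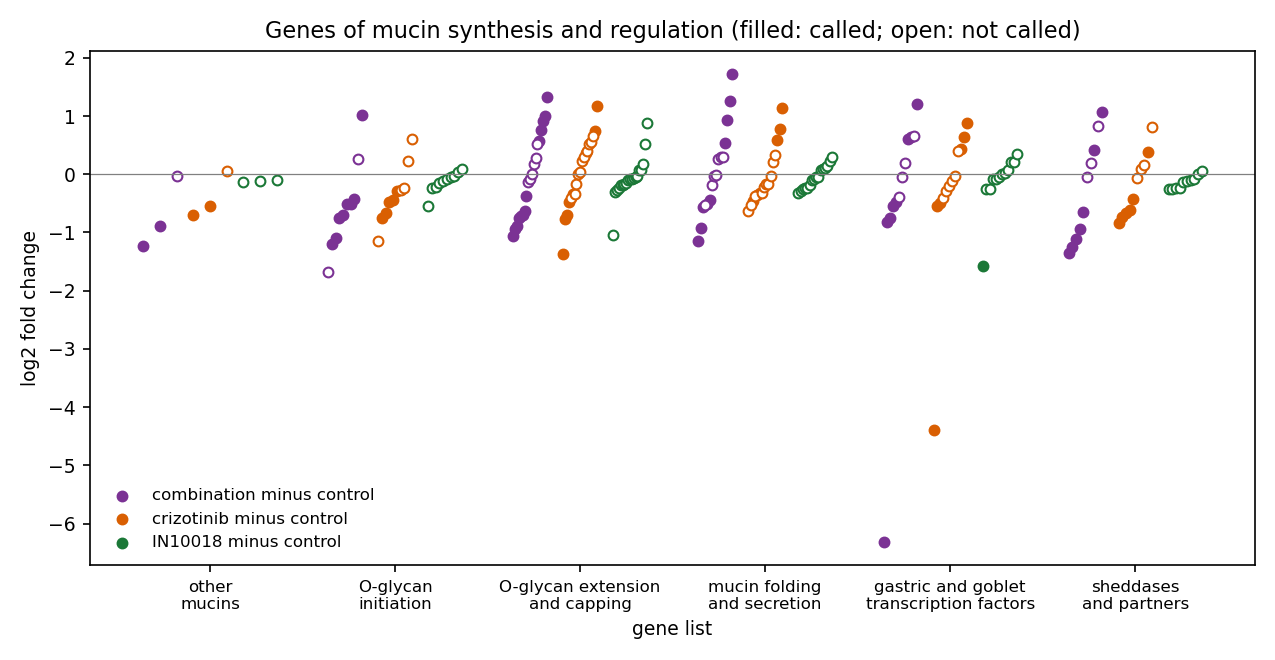
Log2 fold changes of the tested genes of each list (1 point a gene, sorted within a list) for combination, crizotinib and IN10018, each over control; filled points are called and open points are not. In the O-glycan initiation list 7 of 10 genes are called lower in the combination, and the lowest combination point, in the list of transcription factors, is KLF4, whose fitted value rests on 3 reads in that group.

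Combination over IN10018, 18 of the 70 genes were higher, 28 lower and 24 not called, beside 57.2% called of all tested genes; library totals gave 22 higher and 23 lower. None was called for combination over crizotinib in edgeR, beside 0.0117% of all tested genes. At an unadjusted p under 0.05 there were 20, beside 3697 of all 17096. Leaving out crizotinib library 2 gave 24 calls (34.3%), beside 32.3% of all tested genes in the same fit. For the interaction none was called either, beside 0.0702% of all tested genes. At an unadjusted p under 0.05 there were 4, beside 1367 of all 17096. Leaving out crizotinib library 2 gave 3 calls (4.29%), beside 4.61% of all tested genes.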

How the data were processed

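The authors deposited raw read counts, 1 whole number per gene and library, for 12 libraries. Per the submitters' processing notes, the tools named are DESeq2, featureCounts, HISAT2, FastQC and Trimmomatic, and the builds named are GRCh38 and hg38. Versions, the annotation release, the strand setting and the treatment of reads with several alignments are not given in the sources used here. Libraries came from a directional kit, per the labels' protocols. Libraries were grouped by the treatment label.

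The 9 genes and all lists were chosen with earlier results of these data known, and which values led to the choice is not recorded. Calls and p-values of listed genes, markers and neighbours included, are therefore not independent evidence. edgeR 4.0.16 in R 4.3.3 was run on all 12 libraries together, with TMM scaling, its filter on low counts and a robust quasi-likelihood fit, whose common biological coefficient of variation was 0.139. P-values were adjusted over all 17096 tested genes, and SE is the log2 fold change divided by the square root of F. CPM are TMM-scaled, and log2 CPM for likeness used a prior count of 2. TPM used GENCODE 29 exon lengths, found for 96.43% of genes. Named related genes are up to 3 with the smallest p per list and comparison, plus the listed neighbours; others were chosen after their values were seen. On simulated counts with 200 changed genes, a log2 change of 1 was recovered in 67% of cases for combination over control and 74% for combination over crizotinib. The simulation had no deviations shared by the genes of a library, such as those of crizotinib library 2, and changed few genes. Its shares therefore do not give the power of the real comparisons.

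Same-numbered crizotinib and combination libraries deviated together (0.218, 0.624 and 0.275), so the blocked value is given there. Unlike-numbered libraries of these groups had correlations from -0.527 to 0.422, so the pairing is uncertain. In the other pairs of groups the correlations of same-numbered libraries were between -0.028 and 0.156. The pairing comes from these data, not from the labels. Alternatives were DESeq2 1.42.0 without the filter, limma-voom (limma 3.58.1), other scalings and filters, the block, fits of only the compared libraries, and leaving out libraries or mitochondrial genes. Of the neighbouring genes and the genes most like MUC6, 1 each is not reported here.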

Additional observations from a re-analysis of the deposited data

How the results depend on the processing

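The mucins were chosen with results of these libraries known, so no mucin call below, kept or lost, is evidence of a difference. Refitting the same libraries cannot change that, and the calls only describe the fits. Combination over control and combination over IN10018 kept both mucins called under all alternatives run. They had 44 to 50 and 36 to 48 related genes called, or 42.6 to 75% and 38 to 70.3% of those tested. Of all tested genes, 29.8 to 66.8% and 26.2 to 61.8% were called. For IN10018 over control, where 1 related gene was called, fitting only the compared libraries gave 11 of 68 (16.2%, beside 13.9% of all tested genes). Omitting both libraries numbered 2 of crizotinib and combination gave 4 of 70 (5.71%, beside 5.01%), and leaving out 1 library gave 0 to 1. No mucin was called there, but 1 was without the filter (1.06% of all tested genes called) and 1 with only the compared libraries (13.9%). With 1 library left out, 0 to 0 were called. For crizotinib over control, related calls ran from 15 to 39 with 1 library left out. These were 20.8% of those tested, beside 17.7% of all tested genes, and 54.9%, beside 45.4%. Mucin calls there dropped from 2 to 1 with only the compared libraries (31.1% of all tested genes called), in DESeq2 (36.9%) and without the libraries numbered 2 (36.4%). They ran from 1 to 2 with 1 library left out, and MUC1 was the one lost. For combination over crizotinib, 8 related genes were called without the filter (7.41%, beside 4.89% of all tested genes). Without the libraries numbered 2 there were 19 (27.1%, beside 25.2%). With 1 library left out, 0 to 24 were called, the 24 being 34.3%, beside 32.3%. Of the mucins 1, MUC6, was called there without the filter (1.15), without the libraries numbered 2 (1.38) and with the replicate block (1.18). These fits called 4.89%, 25.2% and 0.550% of all tested genes. With 1 library left out, 0 to 1 mucins were called. The interaction had 4 related calls without the libraries numbered 2 (5.71%, beside 11.1% of all tested genes). With 1 library left out it had 0 to 3, the 3 being 4.29%, beside 4.61%. Its sign turned for MUC6 without control library 2 (-0.08), crizotinib library 3 (-0.16) or combination library 2 (-0.15), and for MUC1 without control library 2 (-0.059). Over all 12 libraries left out in turn, the interaction ran from -0.16 to 0.59 for MUC6 and from -0.059 to 0.29 for MUC1. The cause of these shifts was not tested. The replicate block, with the pairing by number, changed no other mucin call. Scaling by library totals moved the median of all tested genes by 0.12 for crizotinib over control, 0.18 for combination over control and 0.11 for combination over IN10018. Depth limits the 7 mucins and trefoil factors with 0 to 36 reads, for which no change could be tested.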
